A study of Mus musculus with 6 samples.

Results

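The antioxidant and Nrf2 pathway genes described here are 10 mouse genes: Sod1, Sod2, Cat, Gpx1, Gpx4, Nfe2l2, Keap1, Hmox1, Nqo1 and Gclc. They were chosen by name for their known roles, through a list of 10 Ensembl identifiers, and all 10 were found among the 48505 genes of the deposited tables. The tables come from 6 libraries of RNA fragments pulled down with a polyclonal antibody against N6-methyladenosine (m6A), a methyl mark on adenosines of messenger RNA. The RNA came from fetal hearts collected at gestational day 15, 3 sham libraries (dams breathing filtered air) and 3 from the nano-TiO2 group, called exposed libraries from here on. Libraries are numbered by their replicate number. Every dam was an FVB/NJ wild-type mouse aged 10 weeks. Exposed dams inhaled aerosolized nano-TiO2, titanium dioxide nanoparticles, in a whole-body chamber at a target of 12 mg/m3 for 360 minutes a day, on 6 days spread over 8 days, starting on gestational day 5. Each library pooled male and female fetal hearts. Which litters entered a pool is not stated, so the p-values below measure the spread between these pools.

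Cells remove reactive oxygen in steps. Superoxide dismutases turn superoxide into hydrogen peroxide, SOD1 in the cytosol and SOD2 in the mitochondrial matrix. Catalase and glutathione peroxidases then break down peroxides. Much of the inducible defence is under the transcription factor NRF2, encoded by Nfe2l2. KEAP1 holds NRF2 in the cytosol for degradation, and electrophiles or oxidants that modify KEAP1 let NRF2 reach the antioxidant response elements of its target genes. Hmox1, Nqo1 and Gclc are classical targets. The heart depends heavily on mitochondrial respiration, a main source of superoxide. Inhaled nanoparticles are widely studied for oxidative stress, and the comparisons below ask how these genes differed after exposure.

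The antioxidant response element has a core that was searched for here as TGACNNNGC on both strands, in windows from 250 bases before to 50 after each annotated gene start (RefSeq, GRCm38.p6). The 2 matches among the genes studied are shown because they lie before Nfe2l2, the gene of NRF2 itself, which rose in the first comparison below, and before Sod1, which fell in it. Capitals mark the core as it reads on the gene's strand.
Nfe2l2: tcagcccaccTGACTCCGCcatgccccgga
Sod1: gccaaggtggGCGTGGTCAgactcaggcct
The Nfe2l2 match is at chr2:75704884-75704913, upstream of a gene on the minus strand, and its core starts 240 bases before the gene start on the gene's own strand. The Sod1 match is at chr16:90220696-90220725, upstream of a gene on the plus strand, and its core starts 56 bases before the gene start on the opposite strand. These coordinates belong to GRCm38.p6 and not to the build of the deposited tables. A promoter entry was at hand for 8 of the 10 genes, in 11 windows, of which 2 held the core. Over all 32851 promoter windows of the same length, 12.4% held it. A match of letters says nothing of binding, and no promoter was measured in these data.

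The deposited tables hold a value per gene and window, with window starts mostly 25 nucleotides apart. In the normalized table, a value is a read number over the size factor of its library, and its sum over a gene's windows is called the IP level here. An IP level depends on how much of a transcript there is and on how much of it the antibody holds, and in pooled tissue fewer cells of a type and less RNA per cell cannot be told apart. Libraries held 20205024 to 31523675 reads. The 10 genes together held 25602 to 42604 reads of a library. The 4 most abundant genes took 20.6% to 35.2% of reads in sham and 8.03% to 18.0% in exposed libraries, a difference between the groups that runs alongside every IP comparison below; values with totals set outside these genes are given with the scaling settings. Markers of heart muscle and of other cell types were not analysed here, because the tables carry identifiers only.

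Genes are set beside each other here by 1 window each, the window with the highest mean over the 6 libraries, because an average over all windows would fall with the unread stretches of a gene: only 19 of the 158 windows of Sod1 averaged 10 or more normalized reads, against 36 of the 57 of Gpx1. The highest windows of the glutathione peroxidase genes held the most, at start 1501 of Gpx4 (572 to 874 normalized reads in sham and 281 to 381 in exposed libraries) and at start 801 of Gpx1 (350.0 to 895 and 304 to 333). The dismutase genes came next, at start 3726 of Sod1 (219 to 313 and 145 to 172) and start 1326 of Sod2 (220.4 to 256 and 166 to 287). In sham libraries the highest windows of these 4 genes overlapped within each enzyme family and lay apart between families. In exposed libraries the window of Sod2 reached above the lowest value of Gpx4. At start 1194 Keap1 had 18.9 to 28.5 in sham and 16.7 to 25.7 in exposed libraries, and at start 689 Cat had 9.46 to 18.6 and 27.3 to 36.2. Keap1 therefore lay above Cat in sham and below it in exposed libraries, in sham by a narrow step. Nfe2l2 at start 347 (5.40 to 14.9 and 11.6 to 24.97) and Hmox1 at start 1501 (5.41 to 19.7 and 3.22 to 9.93) overlapped in sham and lay apart in exposed libraries. Nqo1 at start 429 (3.29 to 4.05 and 0.828 to 6.70) and Gclc at start 2676 (0 to 7.67 and 1.61 to 2.48) were at a few reads a library and overlapped in both groups. These orders are descriptions and were not tested.

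The first comparison asked how IP levels differed between nano-TiO2 and sham hearts. Cat, Nfe2l2 and Gclc rose, and Gpx1, Gpx4 and Sod1 fell, while Sod2, Keap1, Hmox1 and Nqo1 did not pass the test. The test was limma on log2(IP level + 1), two-sided, with p-values adjusted over all 18566 genes tested by the Benjamini-Hochberg method at 0.05. It called 6 of the 10 genes, in a table where 36.0% of all genes were called. The 3 rises stand beside 24.0% of all genes called higher, and the 3 falls beside 12.0% called lower. When all genes were divided into 5 groups of equal size by mean IP level, Gpx1, Gpx4 and Sod1 fell into the highest, where 32.5% of genes were called lower and 12.4% higher and the median log2 change was -0.27. Cat and Nfe2l2 fell into group 4, where 27.9% were called higher, and Gclc into group 2, where 28.6% were. The groups did not overlap in the same 6 genes, and over all genes this held for 49.5%, upwards in 30.9% and downwards in 18.5%. The median log2 change of the 10 genes was -0.04, against 0.13 over all genes tested.

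**Figure D1:**
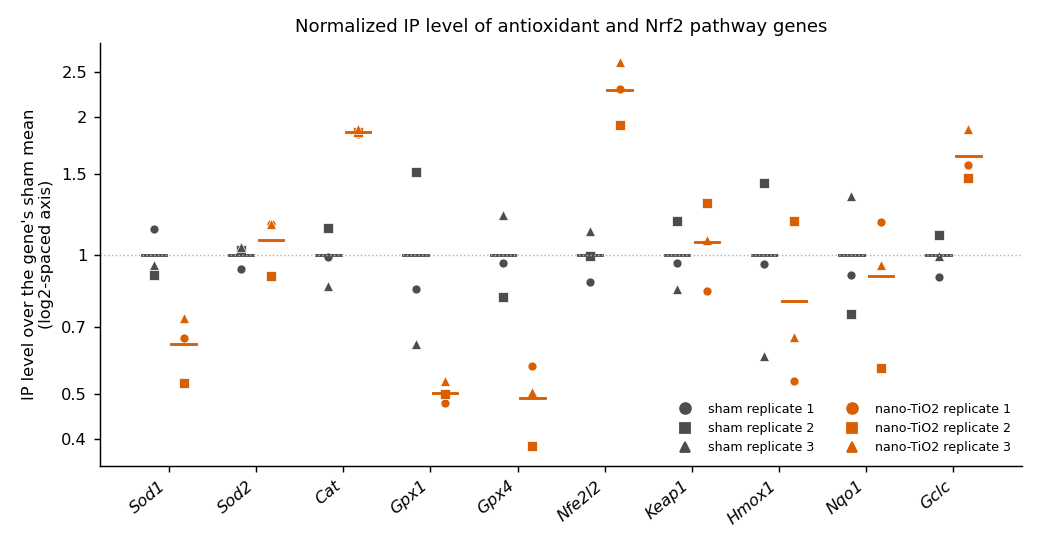
Normalized IP level of each gene in each library, divided by the mean of the gene's 3 sham libraries, on a log2-spaced axis (points are libraries, horizontal lines group means, grey sham, orange nano-TiO2). The nano-TiO2 points lie apart from the sham points in 6 genes, below them in Sod1, Gpx1 and Gpx4 and above them in Cat, Nfe2l2 and Gclc.

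Superoxide is removed by the products of Sod1 and Sod2. Sod1 (ENSMUSG00000022982) had an IP level of 3185, 2524 and 2649 in sham libraries 1, 2 and 3 and of 1847, 1473 and 2036 in exposed libraries 1, 2 and 3. Every exposed library was below every sham library. The mean went from 2786 ± 351 to 1785 ± 286 (SD, n = 3), 1.56-fold lower (limma log2 change -0.65 ± 0.17 SE, adjusted p = 0.0155). The call was lost without sham library 1 (-0.55, adjusted p = 0.0625, limma).

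Sod2 (ENSMUSG00000006818) had 6332, 6969 and 7071 in sham and 7932, 6125 and 7930 in exposed libraries. The groups overlapped, with exposed library 2 the lowest of all 6 libraries. The log2 change was 0.10 ± 0.15 SE, with a 95% interval from -0.23 to 0.44, and the adjusted p was 0.628 (limma). The 2 dismutase genes therefore gave different calls, and the difference between them was not itself tested.

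The IP level of Cat (ENSMUSG00000027187), which encodes catalase, the peroxisomal enzyme that splits hydrogen peroxide, rose. It was 638.7, 738.2 and 552.8 in sham and 1182, 1189 and 1210 in exposed libraries. The exposed libraries lay close together and well above the sham libraries. The mean went from 643.2 ± 92.8 to 1194 ± 14.9 (SD, n = 3), a ratio of 1.86 (limma log2 change 0.90 ± 0.15 SE, adjusted p = 0.00259). Cat passed under each of the 20 alternative settings tried, at 0.76 to 1.40 on the log2 scale.

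Both glutathione peroxidase genes fell. Gpx1 (ENSMUSG00000063856), the abundant cytosolic enzyme, had 12075, 21638 and 9170 in sham and 6826, 7144 and 7633 in exposed libraries. The sham libraries were spread widely, with sham library 2 far above the others, and the exposed libraries were all below them. The log2 change was -0.90 ± 0.27 SE (means of 14295 ± 6524 and 7201 ± 407, SD, n = 3; adjusted p = 0.0316, limma). Without sham library 2 the log2 change was -0.55 (adjusted p = 0.0488, limma), and the call was lost when sham library 1 (adjusted p = 0.0618) or exposed library 1, 2 or 3 (0.0719, 0.0607 and 0.0702) was left out.

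Gpx4 (ENSMUSG00000075706), which reduces lipid peroxides within membranes and guards against ferroptosis, had 13986, 11801 and 17786 in sham and 8371, 5592 and 7354 in exposed libraries. Every exposed library was below every sham library. The mean went from 14524 ± 3029 to 7106 ± 1406 (SD, n = 3), 2.04-fold lower (limma log2 change -1.03 ± 0.20 SE, adjusted p = 0.00486). With any library left out the call held, the log2 change lying between -1.17 and -0.87 (limma, adjusted p 0.00719 to 0.0199).

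Of the regulators, Nfe2l2 (ENSMUSG00000015839) rose the most of the 10 genes. It had 312.1, 354.9 and 402.8 in sham and 817.9, 683.5 and 937.4 in exposed libraries. The lowest exposed library was well above the highest sham library. The mean went from 356.6 ± 45.3 to 813.0 ± 127 (SD, n = 3), a ratio of 2.28 (limma log2 change 1.18 ± 0.17 SE, adjusted p = 0.00167). With the median of its 5 tested windows in place of the sum the log2 change was 0.66 and did not pass (adjusted p = 0.227, limma).

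Keap1 (ENSMUSG00000003308), the adaptor that targets NRF2 for degradation, had 1362, 1679 and 1193 in sham and 1181, 1831 and 1522 in exposed libraries. The groups overlapped throughout. The log2 change was 0.09 ± 0.20 SE, with a 95% interval from -0.36 to 0.54 (adjusted p = 0.755, limma). Its sign turned without sham library 3 (-0.024) and without exposed library 2 (-0.060).

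Of the NRF2 targets, Gclc rose, and Hmox1 and Nqo1 did not pass. Gclc (ENSMUSG00000032350), the catalytic subunit of the enzyme that starts glutathione synthesis, had 65.67, 81.05 and 72.98 in sham and 114.9, 107.6 and 137.7 in exposed libraries. The groups lay apart, at only 54 to 171 reads a library. The ratio of means was 1.64 (73.23 ± 7.70 against 120.1 ± 15.7, SD, n = 3; limma log2 change 0.70 ± 0.20 SE, adjusted p = 0.0250). The call was lost without sham library 1 or 3 (adjusted p = 0.0741 and 0.0555, limma) and without exposed library 1 or 3 (0.0537 and 0.107).

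Hmox1 (ENSMUSG00000005413), which breaks down haem, had 242.0, 363.6 and 152.7 in sham and 135.0, 299.6 and 168.3 in exposed libraries. Library 2 was the highest in each group and the groups overlapped. The log2 change was -0.33 ± 0.37 SE, with a 95% interval from -1.15 to 0.50 (adjusted p = 0.522, limma). Nqo1 (ENSMUSG00000003849), a quinone reductase, had 125.0, 103.0 and 185.2 in sham and 162.9, 78.61 and 131.3 in exposed libraries. Here too the groups overlapped. The log2 change was -0.17 ± 0.31 SE, with an interval from -0.88 to 0.55 (adjusted p = 0.714, limma), so a decrease of the size seen in Sod1 lies within the intervals of both Hmox1 and Nqo1.

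The calls depended in part on how the libraries were scaled to each other. With equal totals per library, 4 of the 10 genes were higher (Cat, Nfe2l2, Gclc and Sod2) and 0 lower, against 3 and 3 with the deposited scaling. Over all genes that setting called 43.1% higher and 0.916% lower, and it moved the median log2 change of all 18566 genes from 0.13 to 0.61. When totals were made equal outside those 4 most abundant genes, which moved that median to 0.39, Cat, Nfe2l2 and Gclc were higher and Gpx4 was lower, where 33.9% of all genes were higher and 5.45% lower. After quantile normalization, at a median of -0.05, Cat, Nfe2l2 and Sod2 were higher and Gpx4 was lower, where 16.6% of all genes were higher and 15.1% lower. Gpx4 missed the threshold with equal totals (-0.53, adjusted p = 0.0750, limma), as Gpx1 and Sod1 did in these 3 settings, at log2 changes of -0.62 to -0.40 for Gpx1 and -0.47 to -0.15 for Sod1. Equal totals move all genes of a library by 1 constant, so they leave the changes relative to the median of all genes as they were but for the pseudocount. Quantile normalization does not. Relative to that median it brought Gpx4 from -1.16 to -0.51, Gpx1 from -1.02 to -0.41 and Sod1 from -0.77 to -0.41, while Cat went from 0.78 to 0.91 and Nfe2l2 stayed at 1.06. Sod2, at -0.025 before, moved to 0.54 by the quantiles, to -0.66 once the length trend described next was removed and to 1.07 when the median of its tested windows replaced their sum.

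Changes in IP level across all genes moved with the number of windows per gene, so each gene is set beside genes of its own length. When the 18566 genes were divided into 5 groups of equal size by windows, Gpx1, Gpx4, Cat, Hmox1 and Nqo1 (57 to 104 windows) fell into the second group, where 9.21% of genes were called higher and 14.1% lower. Sod1, Nfe2l2 and Gclc (150 to 158 windows) fell into the third, where 19.1% were higher and 7.24% lower. Keap1, with 187 windows, fell into the fourth, where 31.5% were higher and 3.37% lower and the median log2 change was 0.34. Sod2, with 400 windows, was in the group of the longest genes. In that group 55.5% of genes were called higher, the median log2 change was 0.81 and the quartiles were 0.31 and 1.24, all above the 0.10 of Sod2. By mean IP level, however, Sod2 was in the highest of the 5 groups. There the median log2 change was -0.27 and the quartiles were -0.60 and 0.12, so Sod2 lay just under the upper quartile. Once the trend with length had been taken out of every library, Sod2 was lower in exposed hearts (-0.70 ± 0.16 SE, adjusted p = 0.0166, limma), so its direction turned with this setting. Cat (0.86), Nfe2l2 (0.98), Gpx4 (-0.93) and Sod1 (-0.87) still passed, at adjusted p of 0.00694 to 0.0200, while Gpx1 (-0.73, adjusted p = 0.0786) and Gclc (0.50, adjusted p = 0.0939) did not.

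**Figure D2:**
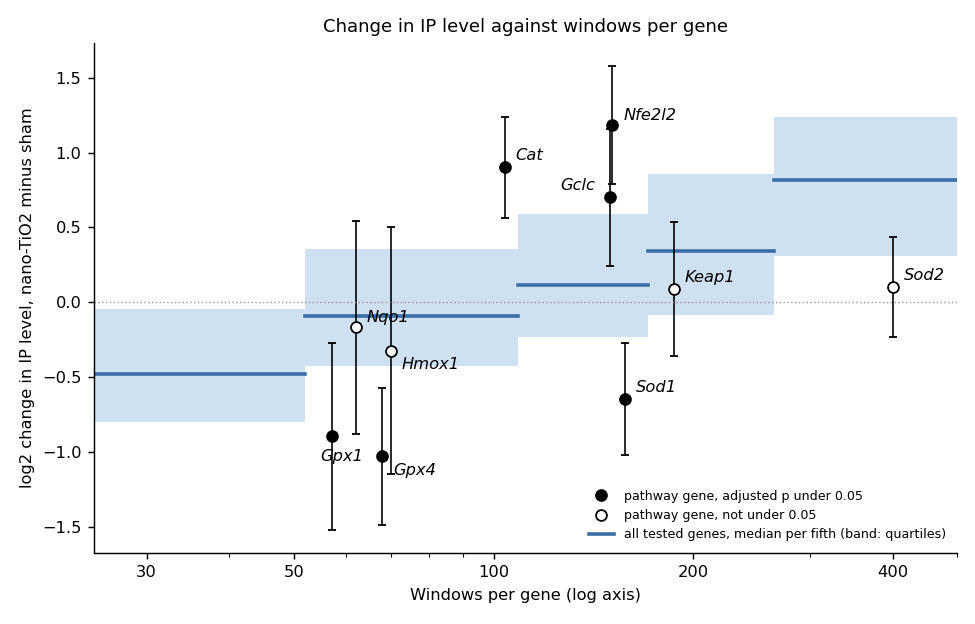
Log2 change in IP level (nano-TiO2 minus sham) of each gene against its number of windows, on a log axis, with 95% intervals from limma. Blue lines are medians and bands quartiles of all tested genes in 5 groups by windows, cut off at the right edge. Sod2 lies below the band of its group at 0.10, with an interval that reaches into it. Gpx1, Gpx4 and Sod1 lie below, and Cat, Nfe2l2 and Gclc above, the bands of theirs.

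The second comparison used the deposited table of adjusted values. They are normalized values divided by 1 factor per gene and library and then rounded, and the source of the factor is not stated. In these values, 0 of the 10 genes passed, and 0.0% of the 19361 genes tested did (limma). At an unadjusted p under 0.05 there were 4 of the 10 genes, Cat, Nfe2l2, Keap1 and Gpx4, where 18.6% of all genes had such a p. The groups did not overlap in 4 genes, higher in Sod2, Cat and Nfe2l2 and lower in Nqo1, where 19.4% of all genes lay apart upwards and 2.96% downwards. For Nqo1 this rests on the rounded values, as described below. The median log2 change was -0.0021 over the 10 genes and 0.166 over all genes.

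Cat had adjusted levels of 721, 811 and 694 in sham and 1025, 1012 and 1118 in exposed libraries. These groups lay apart, as in the IP level. The ratio was 1.42 (742.0 ± 61.3 against 1052 ± 57.8, SD, n = 3; log2 difference 0.50 ± 0.11 SE, 95% interval 0.26 to 0.75), with an adjusted p of 0.179 (limma). Nfe2l2 had 441, 509 and 510 in sham and 607, 609 and 703 in exposed libraries. Again no library crossed. The ratio was 1.31 (486.7 ± 39.6 against 639.7 ± 54.9, SD, n = 3; limma log2 difference 0.39 ± 0.13 SE, adjusted p = 0.190). Keap1, whose groups also overlapped in IP level, had 1160, 1477 and 1223 in sham and 1443, 1794 and 1752 in exposed libraries. Only sham library 2 reached into the exposed range, and the log2 difference was 0.37 ± 0.13 SE (adjusted p = 0.20, limma).

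The glutathione peroxidase genes looked different once the factor was applied. Gpx1 had 10736, 11180 and 10353 in sham and 10385, 10757 and 10431 in exposed libraries. The libraries of both groups were interleaved, and the wide sham spread of the IP level was gone. The log2 difference was -0.03 ± 0.07 SE, with a 95% interval from -0.18 to 0.12 (adjusted p = 0.830, limma). Gpx4 had 12878, 10130 and 11535 in sham and 11058, 9066 and 8836 in exposed libraries. Exposed library 1 lay within the sham range, and the log2 difference was -0.25 ± 0.11 SE (adjusted p = 0.249, limma). Sod1 (-0.20 ± 0.13 SE, adjusted p = 0.415, limma) also overlapped between groups.

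Sod2 had 6873, 7110 and 6484 in sham and 7212, 7497 and 7174 in exposed libraries. The groups lay apart by a small step, with a log2 difference of 0.10 ± 0.07 SE (adjusted p = 0.488, limma). Nqo1 was the only gene of the 10 whose adjusted level, as rounded, was lower in every exposed than in every sham library. It was 119, 122 and 115 against 166, 160 and 137 in sham. The log2 difference was -0.37 ± 0.19 SE (adjusted p = 0.308, limma). Before rounding, the level of Nqo1 lay between 127.2 and 146.8 in sham library 3 and between 123.5 and 130.6 in exposed library 2. These ranges overlap, so whether the groups of Nqo1 lay apart is not settled. Hmox1 had 194 to 255 in sham and 201 to 258 in exposed libraries (log2 difference 0.03 ± 0.18 SE, adjusted p = 0.948, limma). Gclc had 73, 139 and 120 in sham and 103, 92 and 59 in exposed libraries. Its groups overlapped, and its log2 difference of -0.37 ± 0.31 SE (adjusted p = 0.527, limma) had the opposite sign to the change in its IP level. Its adjusted values are sums of small rounded numbers: before rounding, the level lay between 63.87 and 82.12 in sham library 1 and between 71.25 and 85.5 in exposed library 3, so the adjusted order of these libraries is not settled.

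The factor itself, the normalized over the adjusted level, lay apart between the groups in 6 of the 10 genes, the same ones as the IP level, where 41.6% of 19182 genes did so. For Gclc this rests on rounded values. Its factor could lie between 0.8 and 1.03 in sham library 1 and between 1.01 and 1.24 in exposed library 1. For Nfe2l2 the factor was 0.708, 0.697 and 0.790 in sham and 1.35, 1.12 and 1.33 in exposed libraries. It ran the other way for Gpx4, at 1.09, 1.16 and 1.54 in sham and 0.757, 0.617 and 0.832 in exposed libraries. For Gpx1 it ranged from 0.886 to 1.94 in sham, with sham library 2 highest, as in its IP level. The factor was computed from the same IP level, so the shared direction is partly built in.

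**Figure D3:**
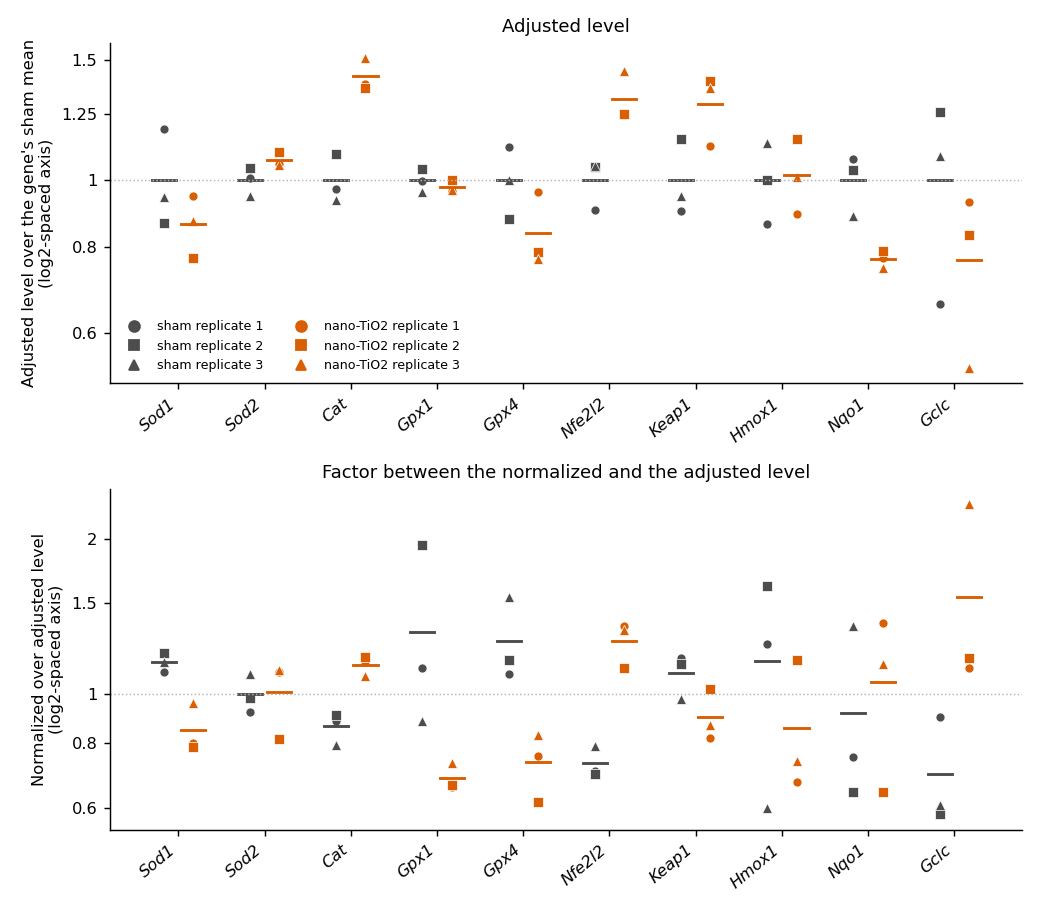
Top, adjusted level of each gene in each library over the mean of its 3 sham libraries; bottom, the factor between the normalized and the adjusted level. Both axes are log2-spaced, points are libraries and lines group means, grey sham and orange nano-TiO2. In the top panel Cat, Nfe2l2 and, by a small step, Sod2 lie above sham and Nqo1, in its rounded values, below it. Gpx1 is interleaved there while its factor is lower in nano-TiO2.

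Of the alternative settings, 2 brought calls in the adjusted level. Without sham library 2, Cat (0.57, adjusted p = 0.0277, limma) and Keap1 (0.47, adjusted p = 0.0381) passed, both higher, among 1878 genes. Of the 19361 genes tested, 8.32% were then higher and 1.38% lower. With array quality weights Cat, Nfe2l2, Keap1, Gpx4 and Sod1 passed, the first 3 higher and the others lower (adjusted p 0.00498 to 0.0381, limma), among 5011 genes. In that setting 22.5% of all genes tested were higher and 3.43% lower.

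The third comparison looked along the genes, at windows averaging 10 or more normalized reads over the 6 libraries. A window near this level could pass the filter through the values of a single group. Counts of higher and lower windows near it are therefore partly set by the filter. Windows past the filter numbered 298 in 7 of the 10 genes, and Hmox1, Nqo1 and Gclc had none. The test called 86 of the 298 windows, 16 higher and 70 lower, in a table where 11.2% of 250317 windows were called, 3.88% higher and 7.32% lower (limma). The falls were all among the 126 windows averaging 50 or more, and the rises all among the other 172. Over all genes 26.0% of the 57169 windows averaging 50 or more were called lower in the same test, and their median log2 change was -0.43. Nearly all tested windows of Gpx1, Gpx4 and Sod1 are of that level (35, 35 and 19). The balance of higher and lower calls moved with the scaling. With TMM scaling 20 windows of the 10 genes were higher and 34 lower, where 5.49% of all windows were higher and 2.82% lower. Of the falls, 30 were then in Gpx4, 4 in Gpx1 and 0 in Sod1. After quantile normalization 6 were higher, all in Sod2, and 1 lower, in Gpx4, where 3.39% of all windows were higher and 1.01% lower. RNA fragments of 250 to 350 nucleotides span several window starts, so adjacent windows are not independent. What the window starts are counted along, and in which direction, was not established.

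In Gpx4, 35 of 38 tested windows fell and all 38 were lower in exposed hearts (log2 changes -1.27 to -0.47, median -1.05). Its highest window, at start 1501, had 658, 572 and 874 in sham and 381, 281 and 327 in exposed libraries and was called. At start 1426, the called window of smallest p, Gpx4 had 510.9, 395.4 and 597.4 in sham and 238.8, 188.7 and 237.6 in exposed libraries (log2 change -1.16 ± 0.20 SE, adjusted p = 0.00571, limma). The groups lay apart in both windows, and the called windows ran from start 326 to start 1551. In Gpx1, 26 of 36 windows fell and all 36 were lower (median -0.91). Its highest window, at start 801 of Gpx1, did not pass (log2 change -0.77 ± 0.26 SE, adjusted p = 0.0661, limma). At start 1151 of Gpx1 the values were 354.4, 589.3 and 298.7 in sham and 198.6, 177.1 and 220.7 in exposed libraries, all exposed values being lower (log2 change -0.999 ± 0.228 SE, adjusted p = 0.0131, limma). The count of called windows of Gpx1 rested on single libraries: it was 0 without sham library 2, 1 without exposed library 1 and 4 without exposed library 3. In Sod1, 9 of 19 windows fell and all 19 were lower (median -0.65). At start 3576 of Sod1 the values were 171.8, 155.5 and 167.6 in sham and 100.4, 78.61 and 104.7 in exposed libraries, which did not overlap (log2 change -0.81 ± 0.20 SE, adjusted p = 0.0164, limma). In Sod1 0 windows were called without sham library 1.

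Cat had 41 tested windows, of which 40 were higher in exposed hearts and 3 passed (starts 514, 689 and 739). At start 514 of Cat the values were 7.20, 16.4 and 8.11 in sham and 17.9, 25.7 and 38.7 in exposed libraries (log2 change 1.31 ± 0.39 SE, adjusted p = 0.0375, limma). All exposed values were above all sham values there. Without sham library 1, exposed library 2 or exposed library 3, 0 windows of Cat passed. Nfe2l2 had only 5 windows past the level filter. All 5 were higher in exposed hearts (0.42 to 1.16) and 0 passed (limma, smallest unadjusted p = 0.0207 at start 347 of Nfe2l2). The filter was passed through exposed values at start 347 of Nfe2l2 (5.40, 5.48 and 14.9 in sham). This was also so at start 739 of Cat (7.20, 5.48 and 12.2 in sham). The counts of higher windows in both genes are therefore partly set by the filter. Among windows of a mean of at least 1, 13 of 93 windows of Nfe2l2 passed, all higher, where 1.36% of 1024856 windows were called higher. Keap1 had 77 tested windows, of which 46 were higher, and 0 passed (log2 changes -0.96 to 1.05).

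**Figure D4:**
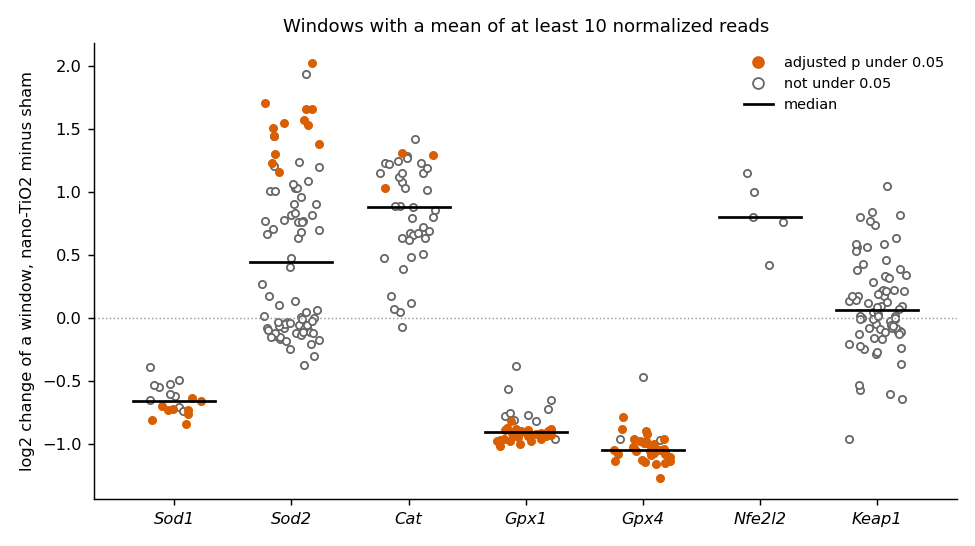
Log2 change (nano-TiO2 minus sham) of each window averaging 10 or more normalized reads, by gene; orange points passed at an adjusted p under 0.05 (limma), open points did not, lines are medians, and sideways spread is only for legibility. All windows of Sod1, Gpx1 and Gpx4 lie below 0, 40 of 41 windows of Cat lie above it, and Sod2 divides into a set near 0 and a set near 1.

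The windows of Sod2 divided into sets that changed differently. Its 37 windows with a mean of at least 50, at starts 151 to 1501, summed to 5241, 5911 and 5903 in sham and 5762, 4490 and 5934 in exposed libraries. These were most of the gene's signal and overlapped between the groups, at a ratio of 0.949 and with 0 windows called. A separate run of 39 windows with means of 10 to 50, at starts 3101 to 4251, summed to 423.7, 366.9 and 494.7 in sham and 1224, 660.4 and 1029 in exposed libraries. There every exposed library was above every sham library. The ratio was 2.27 (428.4 ± 64.0 against 971.2 ± 286, SD, n = 3), all 39 windows were higher, and 13 of them passed (limma). At start 3626 the sham values were 9.895, 7.667 and 9.461, so this window passed the filter of 10 through its exposed values. The ratio and the count of higher windows are therefore partly set by the filter. The share of the run in the IP level of Sod2 was 6.69%, 5.26% and 7.00% in sham and 15.4%, 10.8% and 13.0% in exposed libraries. The run was picked out after its values were seen, so its sum carries no test. The 318 windows of Sod2 averaging under 10 were not tested. They summed to 577.5, 593.6 and 598.7 in sham and 852.5, 866.4 and 845.6 in exposed libraries, a ratio of 1.45. Higher values were therefore not confined to the run.

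The window of Sod2 at start 3901 had the clearest change. It had 4.50, 4.38 and 12.2 normalized reads in sham and 33.5, 15.7 and 44.3 in exposed libraries (log2 change 2.02 ± 0.45 SE, adjusted p = 0.0119, limma). Sham was low in all 3 libraries, and the exposed values started above the highest of them. A further test asked whether a window changed apart from the rest of its gene (limma's diffSplice), and it called 1 of the 298 windows, this one, where 0.0465% of 249423 windows were called. Its log2 change exceeded the average change of the other tested windows of Sod2 by 1.51 (adjusted p = 0.0469, diffSplice). This window passed the level filter through its exposed values. The test also takes overlapping windows as independent, so this adjusted p may be too small, and nothing particular to Sod2 is concluded from the call. At an unadjusted p under 0.05 that test had 28 of the 298 windows, 24 of them in Sod2. The share of all windows with such a p was not computed, so nothing is concluded from this count.

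The count for Sod2 varied with the libraries used. Of its 82 tested windows 13 passed with all libraries, 1 without exposed library 1, 1 without exposed library 3, 6 without sham library 1 or 2, 14 without sham library 3 and 19 without exposed library 2. The within-gene call at start 3901 was lost without sham library 1 or 2 and without exposed library 1 or 3 (smallest adjusted p 0.110 to 0.309 in Sod2, diffSplice).

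The same contrast of low and high windows was taken over other genes. Over 1173 genes with several windows of each kind, the difference in median log2 change between windows of means 10 to 50 and windows of at least 50 had a median of 0.06 and quartiles of -0.03 and 0.15. In Sod2 it was 1.09, and 99.2% of these genes had a smaller difference. Most low windows of Sod2 lie in the single run at starts 3101 to 4251, where windows overlap and some passed the filter through exposed values. This is a description of these libraries, made after the windows of Sod2 were seen. Sod2 also had the most uneven signal of the 10 genes, with its highest window at 71.4 times the median of its windows averaging 1 or more, where the other genes had 1.45 to 2.37 times and the median of 11747 genes was 2.40.

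**Figure D5:**
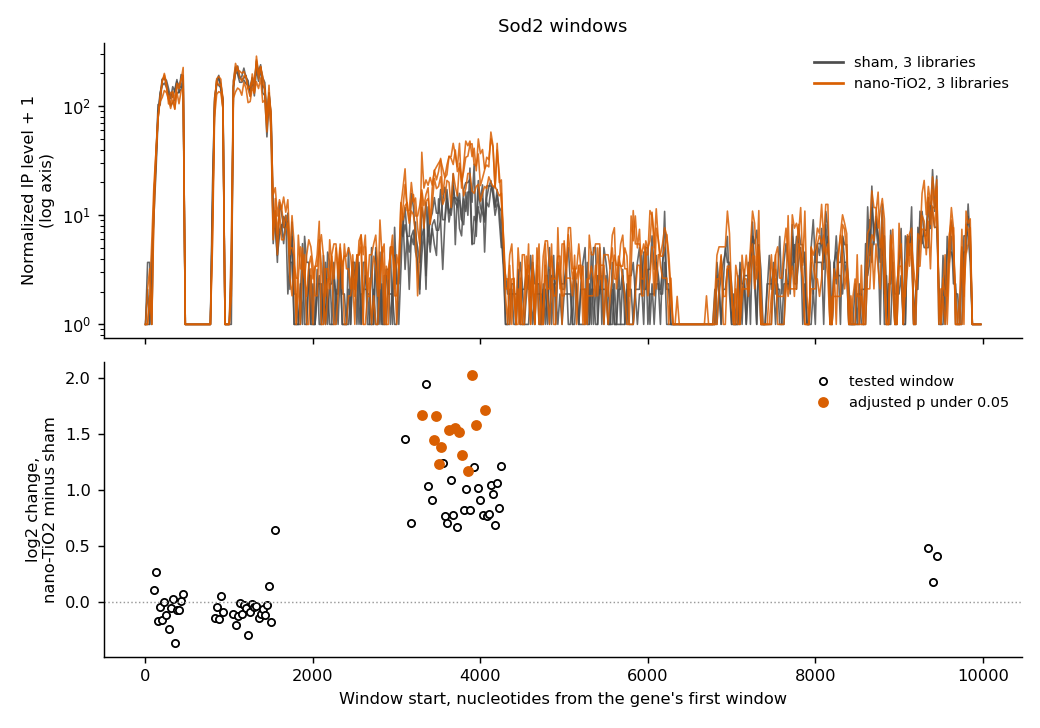
Top, normalized IP level + 1 of each of the 400 windows of Sod2 along the gene, on a log axis, as a line per library (grey sham, orange nano-TiO2); bottom, log2 change of each of the 82 tested windows, orange where the adjusted p was under 0.05 (limma). The high windows at starts 151 to 1501 lie near 0, and the run at starts 3101 to 4251 lies between 0.67 and 2.02.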

How the data were processed

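The authors deposited tables of 6 anti-m6A IP libraries with rows of an Ensembl gene ID and a window start. The submitters' processing notes name GRCm39, DESeq2 1.34.0, Salmon 1.5.2 and HISAT2 2.2.1 with no role; how windows were counted is not stated. The deposited normalized signal was checked to be whole reads divided by 1 factor per library (100% of values within 0.0001), so reads were recovered. The deposited adjusted scores are whole numbers. Input libraries were not used here.

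Gene values are sums over windows. Features averaging at least 10 were tested with limma 3.58.1 (trend; R 4.3.3) on log2(value + 1), which understates changes of low genes, with Benjamini-Hochberg adjustment over all features at 0.05. edgeR 4.0.16 and DESeq2 1.42.0 on recovered reads were alternatives. Scripts were tested on simulated data. An exact permutation test of 3 against 3 cannot go below 0.1 and was not used. Figures used Python 3.11.15, pandas 2.3.3 and matplotlib 3.10.9.

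The members and lists were chosen with earlier results of these data known. All 10 genes are named, each with its highest window and, where windows passed, 1 called window of smallest p; the runs of Sod2 were singled out later. Symbols are those paired with the 10 IDs in the choice of genes. A further list of pathway genes (such as Gclm, Txnrd1 and Prdx1) and cell type markers were not analysed here. Group and replicate came from the sample titles.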

Additional observations from a re-analysis of the deposited data

How the results depend on the processing

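Of the 10 genes, 6 passed in IP level, and 3 to 6 did when single libraries were left out (3 without sham replicate 1: Gpx4, Cat and Nfe2l2). In adjusted level 0 passed, against 5 with array quality weights and 0 to 2 with single libraries left out (2 without sham replicate 2). With array quality weights 22.5% of all genes were called higher and 3.43% lower. Leaving out sham replicate 2 called 8.32% higher and 1.38% lower. Of all genes, 2 passed in adjusted level with the median of the tested windows, and in IP level 2818 of 8877 did, against 6676 of 18566 with the sum. Of 298 windows 86 passed, 54 with TMM scaling, 7 after quantile normalization and 40 to 86 with single libraries left out; of all 250317 windows 28052 passed, 11004 after quantile normalization, and 12114, 17866, 13155 and 13744 without sham replicate 1, sham replicate 2, nano-TiO2 replicate 1 and nano-TiO2 replicate 3. Within genes 1 of 298 windows passed, 0 among windows averaging 50 or more, 2 with the replicate block and 0 to 2 with single libraries left out; of all windows 116 passed, against 648 of those averaging 1 or more and 10 of those averaging 50 or more. At the lower filter of 1 the window of Sod2 no longer passed and a window of Sod1 did (adjusted p = 0.000113, diffSplice). The cause was not tested.

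Changes of sign were found among genes that did not pass with all libraries and the deposited scaling. In IP level, Sod2 turned with DESeq2 (-0.014) and the length trend removed (-0.70), and Keap1 with DESeq2 (-0.046), the length trend removed (-0.22), with single libraries left out (-0.060 to 0.257; -0.060 without nano-TiO2 replicate 2 and -0.024 without sham replicate 3). Hmox1 turned with equal totals (0.17). Nqo1 turned with array quality weights (0.081), equal totals (0.33), equal totals without the 4 most abundant genes (0.10), and with single libraries left out (-0.39 to 0.13; 0.13 without nano-TiO2 replicate 2 and 0.068 without sham replicate 3). In adjusted level, Gpx1 turned after quantile normalization (0.041), Sod2 with TMM scaling (-0.063) and the length trend removed (-0.22), and Nfe2l2 with the median of the tested windows (-0.089). Hmox1 turned with TMM scaling (-0.13), equal totals without the 4 most abundant genes (-0.0078), the length trend removed (-0.056), quantile normalization (-0.18) and with single libraries left out (-0.074 to 0.12; -0.064 without nano-TiO2 replicate 2 and -0.074 without sham replicate 1). In IP level Cat passed in 20 of 20 alternatives, Gpx4 and Nfe2l2 in 19, Sod1 in 16, Gpx1 in 12 and Gclc in 10 of 19; Nfe2l2 was lost with the median of its tested windows (0.66, adjusted p = 0.227, limma). The unrounded adjusted level, an alternative chosen after seeing the data, gave 0 calls.

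Same-numbered libraries of the 2 groups did not deviate together (correlations of -0.365, 0.177 and 0.0236 over 18566 genes), so the numbers were not taken as pairs. Some differently numbered libraries did, at 0.518 for sham replicate 3 with nano-TiO2 replicate 1 and 0.409 for sham replicate 1 with nano-TiO2 replicate 2. Sham replicate 3 and nano-TiO2 replicate 2 deviated in opposite directions (-0.561). Deviations from a group's mean cancel within the group, so a positive correlation forces a negative one elsewhere. The values are therefore not separate results. The main test took no account of these correlations, and their cause was not tested. With the replicate block 5 of the 10 genes passed in IP level, Gclc being lost (adjusted p = 0.0501, limma), 0 in adjusted level, and 101 of 298 windows. Depth limited Gclc, Nqo1 and Hmox1, which had 54 to 362 reads a library and 0 windows past the filter.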
